A study of Mus musculus with 12 samples.

Results

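The growth hormone and insulin-like growth factor (IGF) axis was followed across cell types and sample types of mouse liver by its 10 genes *Ghr*, *Igf1*, *Igfals*, *Igfbp1*, *Igfbp2*, *Igfbp4*, *Socs2*, *Cish*, *Stat5b* and *Igf1r*, out of 32285 features in the deposited matrices. The genes were chosen by name, and their level was the count of unique molecular identifiers (UMIs), spliced, unspliced and ambiguous together, scaled to all UMIs of the sample and cell type as CPM. Single-nucleus RNA sequencing had been made from 8 mice, and each mouse gave tissue (Liver), collagenase-dispersed cells (Cell Suspension) and cells kept on collagen-coated plates for 24 hours (Primary Hepatocytes), which makes 24 hashtagged samples in 6 pools. Pools 1 and 6 held Liver but no Primary Hepatocytes samples, and pools 3 and 4 the reverse. Only pools 2 and 5 held both, so pool and culture cannot be fully told apart. All mice were wild type and, per the methods, male, with the strain labelled C57BL6J in the series records and named as C57BL/6NTac in the methods. All 3 samples of a mouse came after anaesthesia with avertin and perfusion of the liver, the Liver sample being a tied-off lobe, and the culture medium listed serum, dexamethasone and insulin as additions.

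Growth hormone from the pituitary binds its receptor GHR on hepatocytes, which activates the kinase JAK2 and the transcription factor STAT5B. STAT5B drives transcription of *Igf1*, the main source of circulating IGF-1, and of *Socs2* and *Cish*, whose products dampen the receptor's signal. In blood IGF-1 is carried by IGF binding proteins, in part in a complex with the acid-labile subunit encoded by *Igfals*, and it acts through the receptor IGF1R, a gene that adult hepatocytes are known to express weakly. In male rodents growth hormone is known to reach the liver in pulses.

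The annotation held 53467 nuclei, of which 44788 were assigned to hepatocytes and 5435 to endothelial cells. Cultured clusters were assigned to hepatocytes where no other cell type's markers led, without hepatocyte markers having to lead. Summed UMIs of the tested genes in hepatocyte nuclei ranged from 6871681 to 29023179 per sample of Liver, from 2103959 to 17452314 per sample of Cell Suspension and from 9851453 to 21225040 per sample of Primary Hepatocytes. Clusters 5, 6, 9, 11, 13, 15, 18, 19, 22 and 23 held most hepatocyte nuclei of Liver, clusters 2, 4, 7, 10 and 21 those of Cell Suspension and clusters 0, 1, 8, 14 and 17 those of Primary Hepatocytes. In hepatocyte nuclei the summed level of 8 hepatocyte markers was 9420 to 16199 CPM for Liver, 11062 to 18657 CPM for Cell Suspension and 2082 to 6232 CPM for Primary Hepatocytes, while 9 endothelial markers summed to 29.9 to 50.8, 32.6 to 75.1 and 119 to 170 CPM, respectively. All markers of both lists were detected in each sample type, and the part of these shifts in the results was not tested. Cluster 0, which held 5961 cultured nuclei, had no hepatocyte marker but the biliary gene *Pkhd1* among its top 10 genes. Cluster 8, with a median of 1608 UMIs per nucleus, held 1450 cultured nuclei beside 166 from Liver and 705 from Cell Suspension. Comparisons of levels in hepatocyte nuclei were therefore also computed without each of these 2 clusters. The splicing tests and the correlations across mice were not. Clusters 1, 14 and 17 had no hepatocyte marker among their top 10 genes either. Hepatocyte markers summed to 3327, 4264, 7963, 2729 and 5370 CPM in clusters 0, 1, 8, 14 and 17. In cluster 12, assigned to endothelial cells, they summed to 3054 CPM. Between pools, 337 barcodes occurred more than once, in 676 nuclei. Levels compared between sample types were scaled by TMM, whose factors were 0.801 to 0.999 in Liver, 0.736 to 0.920 in Cell Suspension and 1.24 to 1.57 in Primary Hepatocytes. With library totals alone, the median change over all genes, on the log2 scale, moved from 0.10 to 0.66 for Primary Hepatocytes over Liver, from 0.02 to 0.71 over Cell Suspension, and from 0.02 to -0.11 for Cell Suspension over Liver.

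Within Liver tissue the genes divided between those highest in hepatocytes and those highest elsewhere, which is given as a description because the cell types were made from the same UMIs. *Ghr*, the receptor, had a median of 6659 CPM in hepatocyte nuclei (4901 to 10974, n = 8) and 886 to 1671 CPM as medians of the other 5 cell types, with no overlap between hepatocytes and the next type. The other cell types held hepatocyte markers at a median of 0.173 to 0.367 times the hepatocyte level, and *Ghr* at 0.148 to 0.242 times, in each type below its marker ratio. *Igfbp4* was likewise highest in hepatocytes, at 385 CPM (289 to 476), ahead of endothelial nuclei at 161 CPM (136 to 182) without overlap. *Igfbp1*, *Igfbp2* and *Igfals* had their highest medians in hepatocytes, at 72.4, 379 and 16.1 CPM, but their ranges overlapped those of the next cell type. *Igf1* was the exception among the secreted factors, because Kupffer cells, the resident macrophages, had the highest median, at 784 CPM (379 to 1121) against 370 CPM (225 to 2661) in hepatocytes, and these ranges overlapped. *Igf1r* had the opposite order, with medians of 963 CPM in biliary nuclei, 723 CPM in stellate nuclei and 607 CPM in endothelial nuclei, 64.9 CPM in Kupffer cells and 62.6 CPM in leukocytes. Hepatocyte nuclei held only 4.24 CPM of *Igf1r* (2.55 to 6.26), below the range of every other cell type. The nuclei under the biliary annotation were mostly cluster 28, in which mesothelial markers summed to 2353 CPM and biliary markers to 294 CPM. *Socs2* and *Cish* had higher medians in endothelial nuclei (33.6 and 16.04 CPM) than in hepatocyte nuclei (11.5 and 2.53 CPM), but hepatocytes had the widest range of all cell types for both, reaching 182 and 77.9 CPM. *Stat5b* was measured in all 6 cell types at medians from 144 CPM in stellate nuclei to 297 CPM in leukocytes, and each neighbour in that order overlapped the next.

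**Figure D1:**
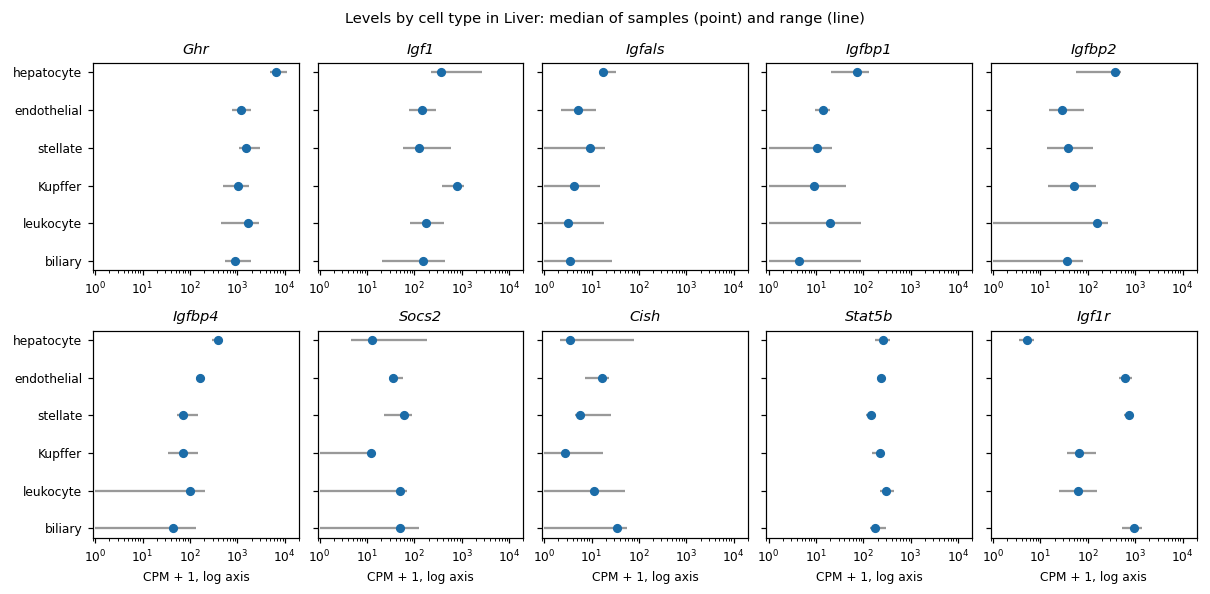
Level of each gene by cell type in Liver as CPM + 1 on a log axis; points are medians of 8 samples and lines run from the lowest to the highest sample. *Ghr* stands at 6659 CPM in hepatocytes, and *Igf1r* at 4.24 CPM in hepatocytes against 607 CPM in endothelial nuclei.

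To ask how isolation and culture changed the axis in hepatocytes, summed UMIs of hepatocyte nuclei were compared over 8 mice with edgeR's quasi-likelihood test. In Primary Hepatocytes compared with Liver, 9 of the 10 genes passed the test at an adjusted p of 0.05, of which 8 were lower and 1, *Igf1r*, was higher, where 53.7% of all 26778 genes tested passed (27.4% higher, 26.3% lower). The median log2 fold change was -2.61 over the 10 genes and 0.10 over all genes. With mouse as a term, which pairs the samples of a liver, the median of the 10 was -1.22, and without mouse 5 it was -1.81. Compared with Cell Suspension, 9 of the 10 were lower in Primary Hepatocytes, all but *Igf1r*, against 50.4% of all genes called (26.9% higher, 23.5% lower), with medians of -2.29 and 0.02 and a median of -1.75 over the 10 with mouse as a term. With library totals in place of TMM this was 8, 1 higher and 7 lower. In Cell Suspension compared with Liver, 1 of the 10 was called, *Igfbp1*, which was higher, against 22.3% of all genes called (8.15% higher, 14.2% lower). With library totals it was 3, 1 higher and 2 lower, namely *Igfbp4* (log2 -0.44) and *Stat5b* (-0.51). With TMM, those not called included *Igf1* (-0.42, adjusted p = 0.64, edgeR), *Igfbp2* (0.48, adjusted p = 0.45), *Igfals* (0.10, adjusted p = 0.77) and *Igf1r* (0.40, adjusted p = 0.080). Folds were smaller with library totals, at 17.1 for *Ghr*, 4.43 for *Igf1* and 4.49 for *Socs2* against Liver, and at 14.2 for *Ghr*, 3.15 for *Igf1*, 4.86 for *Socs2*, 31.9 for *Igfbp2* and 13.4 for *Igfbp4* against Cell Suspension, all of them lower in culture and called. Both culture comparisons share the Primary Hepatocytes samples, so their counts are not independent of each other. In bulk sums of nuclei, fewer nuclei with a transcript and less transcript per nucleus cannot be told apart. The share of nuclei with a UMI, given further on, does not separate them either. A mouse number marks samples from 1 liver, so most directions are also given as a number of mice, counted with TMM.

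**Figure D2:**
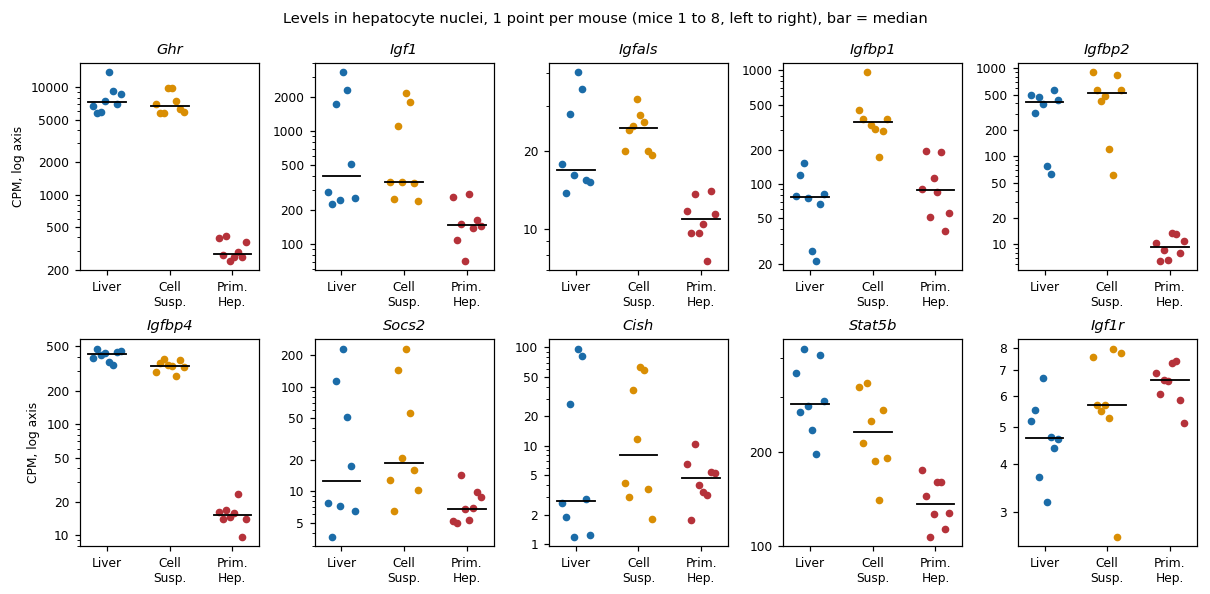
Levels in hepatocyte nuclei as TMM-scaled CPM on log axes, 1 point per mouse in order of mouse number, with the median as a bar. *Ghr*, *Igfbp2* and *Igfbp4* in Primary Hepatocytes lie below all Liver and Cell Suspension samples, whereas *Igfbp1* is highest in Cell Suspension.

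*Ghr*, which lies on the minus strand at chr15:3317760-3583492 of GRCm38, fell in every mouse. Its level was 5749 to 13698 CPM in Liver (median 7252), 5734 to 9908 CPM in Cell Suspension (median 6628) and 243 to 416 CPM in Primary Hepatocytes (median 283). Cultured samples did not overlap the others, which held for 30.3% of all genes against Liver (16.2% with culture lower) and 26.6% against Cell Suspension (12.2% with culture lower). The fall was 25.6-fold against Liver (log2 fold change -4.68, SE 0.22, adjusted p = 1.1e-17, edgeR) and 23.0-fold against Cell Suspension (-4.53, SE 0.21, adjusted p = 2.9e-17), in 8 of 8 mice each. Between Cell Suspension and Liver *Ghr* was not called, with a log2 difference of -0.15 and a 95% interval from -0.51 to 0.21. By cultured cluster, the median *Ghr* level was 489 CPM in cluster 0, 267 CPM in cluster 1, 332 CPM in cluster 8, 283 CPM in cluster 14 and 339 CPM in cluster 17, so each lay below the lowest Liver sample, at 4901 CPM on the same unscaled basis. *Stat5b*, the transcription factor of the pathway at chr11:100780731-100850724 on the minus strand, fell less. It was 197 to 427 CPM in Liver (median 285), 141 to 331 CPM in Cell Suspension (median 232) and 107 to 175 CPM in Primary Hepatocytes (median 136). With TMM, Primary Hepatocytes did not overlap Liver and did overlap Cell Suspension, whereas with library totals they overlapped both, at 143 to 226 CPM against 179 to 367 CPM in Liver. The fold changes were 2.21-fold lower than Liver (log2 -1.14, SE 0.17, adjusted p = 1.1e-06) and 1.71-fold lower than Cell Suspension (log2 -0.77, SE 0.17, adjusted p = 0.00030), and with library totals in place of TMM these were -0.58 (adjusted p = 0.0023) and -0.07, the latter not called. By mouse, with TMM, cultured *Stat5b* was lower in 8 of 8 against Liver and in 7 of 8 against Cell Suspension. *Stat5b* was lower in Cell Suspension than in Liver in 8 of 8 mice, by 0.37 on the log2 scale, but this did not pass the test (adjusted p = 0.13). *Stat5b* and its close paralog *Stat5a* can share reads, which limits how well each is known.

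*Igf1*, at chr10:87858265-87937042 on the plus strand with the antisense gene *Igf1os* on the other strand, differed as much between mice as between sample types. In Liver its level ranged from 225 to 3322 CPM with a median of 403 CPM, and mice 3, 5 and 6 had 1748, 3322 and 2320 CPM whereas the other mice had at most 518 CPM. The Cell Suspension samples of the same 3 mice were again highest, at 1109, 2185 and 1808 CPM, against at most 357 CPM in the rest. In Primary Hepatocytes the range closed to 71.2 to 280 CPM (median 148), in which mouse 5 was again highest, at 280 CPM, followed by mouse 1 at 261 CPM, and mice 3 and 6 lay at 150 and 139 CPM. The gap was present within sequencing pools, since in pool 6 the Liver level was 289 CPM in mouse 1, 225 CPM in mouse 2 and 2320 CPM in mouse 6. Averaged over mice, *Igf1* was 6.78-fold lower in Primary Hepatocytes than in Liver (log2 -2.76, SE 0.58, adjusted p = 0.00013) and 5.06-fold lower than in Cell Suspension (log2 -2.34, SE 0.57, adjusted p = 0.00080). With TMM it was lower in 8 of 8 mice in both comparisons, by -0.15 to -4.05 against Liver and -0.45 to -3.69 against Cell Suspension on the log2 scale. By library totals *Igf1* of mouse 1 rose instead, from 275 CPM in Liver and 283 CPM in Cell Suspension to 337 CPM in culture. With mouse as a term, the log2 fold changes were -1.95 (adjusted p = 8.3e-06) and -1.73 (adjusted p = 3.6e-05). *Igfals*, which encodes the acid-labile subunit, at chr17:24865997-24882010 on the plus strand, was also highest in Liver in mice 3, 5 and 6, at 27.8, 40.3 and 34.9 CPM against 13.8 to 17.8 CPM in the rest, but in Cell Suspension mouse 4 was highest, at 31.9 CPM. Its Primary Hepatocytes samples, at 7.57 to 14.1 CPM, lay below all Cell Suspension samples (19.4 to 31.9 CPM) with TMM and overlapped the low end of Liver. *Igfals* was 2.06-fold lower in culture than in Liver (log2 -1.05, SE 0.19, adjusted p = 2.6e-05) and 2.21-fold lower than in Cell Suspension (log2 -1.14, SE 0.20, adjusted p = 1.0e-05), in 8 of 8 mice each with TMM. With library totals these were 1.37-fold (log2 -0.45, adjusted p = 0.028) and 1.35-fold (log2 -0.43, adjusted p = 0.039), and culture, at 9.54 to 19.2 CPM, overlapped Cell Suspension, at 15.9 to 23.4 CPM.

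*Socs2* and *Cish*, which encode feedback inhibitors of the receptor, followed the same mice. *Socs2*, at chr10:95385362-95417180 on the minus strand, was 114, 228 and 51.4 CPM in Liver of mice 3, 5 and 6 and 3.64 to 17.3 CPM in the other 5. In Cell Suspension these mice had 144, 231 and 56.3 CPM against 6.40 to 20.8 CPM, and in Primary Hepatocytes all 8 mice lay between 4.97 and 14.1 CPM, with mouse 3 highest. *Cish*, at chr9:107296026-107302784 on the plus strand with *Gm17040* and *Gm17041* annotated on the opposite strand, was 26.5, 97.2 and 81.4 CPM in Liver of mice 3, 5 and 6 and 1.19 to 2.86 CPM in the rest. In Cell Suspension the same mice had 37.0, 63.8 and 58.4 CPM, mouse 4 had 11.8 CPM and the remainder 1.80 to 4.18 CPM, whereas Primary Hepatocytes ranged from 1.76 to 10.3 CPM, again with mouse 3 highest. The averaged changes therefore rest on few mice. *Socs2* was 7.18-fold lower in Primary Hepatocytes than in Liver (log2 -2.84, SE 0.76, adjusted p = 0.0019), but in 6 of 8 mice, and 8.19-fold lower than in Cell Suspension (log2 -3.03, SE 0.76, adjusted p = 0.0012), in 8 of 8. By library totals mice 2 and 8 rose from Cell Suspension, from 5.58 to 6.96 CPM and from 9.17 to 11.2 CPM. Mouse 4 then also rose from Liver, from 6.75 to 10.5 CPM. Without mouse 5 the *Socs2* values were -1.91 (adjusted p = 0.017) and -2.27 (adjusted p = 0.0061), and with mouse as a term -1.35 (adjusted p = 0.0084) and -1.78 (adjusted p = 0.00089). *Cish* was 5.49-fold lower than in Liver (log2 -2.46, SE 0.80, adjusted p = 0.010) and 4.73-fold lower than in Cell Suspension (log2 -2.24, SE 0.81, adjusted p = 0.021), but it was lower in 4 of 8 and 5 of 8 mice. With mouse as a term *Cish* was no longer called (log2 -0.65, adjusted p = 0.38, and -0.99, adjusted p = 0.17), nor was it without mouse 5 (-1.72, adjusted p = 0.076, and -1.77, adjusted p = 0.077) or without mouse 6 (-1.91, adjusted p = 0.054, and -1.81, adjusted p = 0.079). The *Cish* calls were also lost with pool as a term (-2.16, adjusted p = 0.14, and -2.21, adjusted p = 0.071), and that against Cell Suspension with unspliced UMIs only (-2.24, adjusted p = 0.060) and with library totals (-1.53, adjusted p = 0.10). Between Cell Suspension and Liver neither gene passed the test, with log2 differences of 0.19 (95% interval -1.18 to 1.56) for *Socs2* and -0.21 (-1.70 to 1.27) for *Cish*.

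**Figure D3:**
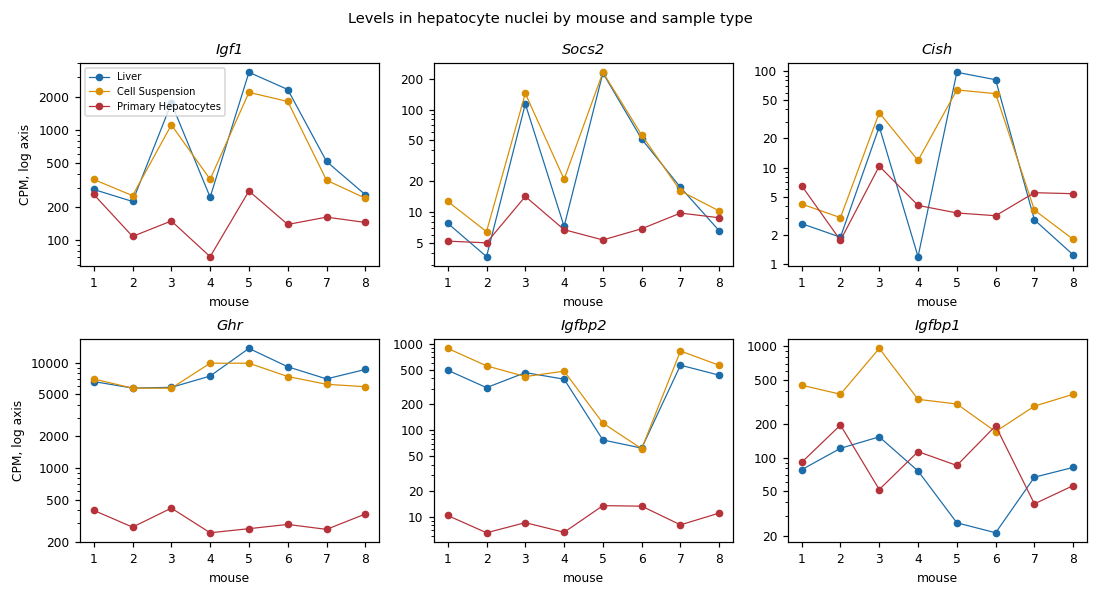
Levels of 6 genes in hepatocyte nuclei by mouse, as TMM-scaled CPM on log axes, with 1 line per sample type. *Igf1*, *Socs2* and *Cish* peak in mice 3, 5 and 6 in Liver and Cell Suspension, whereas in Primary Hepatocytes the highest sample is mouse 5 for *Igf1* and mouse 3 for *Socs2* and *Cish*, within narrower ranges, and *Igfbp2* of mice 5 and 6 is lowest in Liver and Cell Suspension but highest in Primary Hepatocytes.

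Because STAT5 binds palindromes of the form TTCNNNGAA, the promoter windows of the genes, running from 250 bases before to 50 after each RefSeq start site on GRCm38.p6, were searched for these letters. They are shown for the windows with a match, with the match in capitals and the strand of the gene. The letters read the same way on both strands, so both were covered.
Cish, chr9:107296655-107296682, plus strand: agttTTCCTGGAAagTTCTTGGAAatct
Igfals, chr17:24878164-24878190, plus strand: tgccaggtgTTCCTAGAAgaggccctg
Igfals, another start site, chr17:24877599-24877625, plus strand: atctataatTTCTCAGAAaagaggctg
Of 14 windows for 9 of the genes, 3 held a match, and 8.30% of all 32851 windows did. *Socs2* had no window and was not searched. The *Cish* window held 2 matches, and 0.457% of all windows held 2 or more. The first of them begins at base 1 of the RefSeq start site, inside the annotated gene, and those of *Igfals* begin at bases -58 and -236 from their start sites, also inside the annotated gene. A match describes the letters of this window and is not evidence of binding.

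The binding proteins diverged. *Igfbp1*, a binding protein known for fast regulation by insulin and stress, at chr11:7197782-7202546 on the plus strand, was 21.2 to 154 CPM in Liver (median 77.0), 171 to 958 CPM in Cell Suspension (median 353) and 38.5 to 196 CPM in Primary Hepatocytes (median 88.0). Cell Suspension and Liver did not overlap, which held for 5.64% of all genes (4.38% with Cell Suspension lower). The rise with isolation was 5.20-fold (log2 2.38, SE 0.38, adjusted p = 2.0e-05), in 8 of 8 mice, and culture was 3.94-fold below Cell Suspension (log2 -1.98, SE 0.37, adjusted p = 4.2e-05), in 7 of 8, or 2.36-fold below with library totals (log2 -1.24, adjusted p = 0.0049). Against Liver, the cultured level differed by 0.40 on the log2 scale (95% interval -0.31 to 1.11) and was higher in 5 of 8 mice, and with library totals in place of TMM this was 0.97 and called (adjusted p = 0.024), whereas with unspliced UMIs only the direction turned (-0.63, adjusted p = 0.13). Mice 5 and 6 had the lowest *Igfbp1* in Liver, at 26.0 and 21.2 CPM. *Igfbp2*, at chr1:72824503-72852474 on the plus strand, was also low in these 2 mice, at 77.3 and 62.2 CPM in Liver against 312 to 568 CPM in the rest, and at 121 and 61.2 CPM in Cell Suspension against 419 to 890 CPM. In Primary Hepatocytes the same 2 mice were the highest, at 13.4 and 13.2 CPM, in a range that began at 6.49 CPM. *Igfbp2* was 36.1-fold lower in culture than in Liver (log2 -5.18, SE 0.49, adjusted p = 1.2e-10) and 50.5-fold lower than in Cell Suspension (log2 -5.66, SE 0.50, adjusted p = 3.4e-11), with no overlap in either comparison. *Igfbp4*, at chr11:99041244-99054392 on the plus strand, was at 338 to 477 CPM in Liver, 270 to 383 CPM in Cell Suspension and 9.66 to 23.3 CPM in Primary Hepatocytes. It was 26.6-fold lower than in Liver (log2 -4.73, SE 0.15, adjusted p = 4.4e-21) and 21.5-fold lower than in Cell Suspension (log2 -4.43, SE 0.15, adjusted p = 1.9e-20). It was lower in Cell Suspension than in Liver in 8 of 8 mice, by 0.31 on the log2 scale, which did not pass the test (adjusted p = 0.084).

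*Igf1r*, the receptor for IGF-1 at chr7:67952827-68233668 on the plus strand, stayed at a few CPM in hepatocyte nuclei throughout. It was 3.18 to 6.69 CPM in Liver (median 4.67), 2.58 to 7.98 CPM in Cell Suspension (median 5.69) and 5.12 to 7.40 CPM in Primary Hepatocytes (median 6.60). The groups overlapped with TMM, and with library totals culture, at 6.54 to 10.4 CPM, lay above Liver, at 2.55 to 6.26 CPM. Primary Hepatocytes were 1.38-fold above Liver (log2 0.46, SE 0.15, adjusted p = 0.011), in 7 of 8 mice, and did not differ from Cell Suspension beyond the spread (log2 0.07, 95% interval -0.25 to 0.38), although with library totals in place of TMM this was 0.77 and called (adjusted p = 0.00044). The call against Liver was lost without cluster 8 (log2 0.30, adjusted p = 0.11), in which *Igf1r* had a median of 30.3 CPM, without mouse 5 (0.36, adjusted p = 0.057), with pool as a term (0.39, adjusted p = 0.10) and with spliced UMIs only (0.38, adjusted p = 0.35). Over all nuclei the direction turned (log2 -1.18, adjusted p = 0.0062). In the same hepatocyte nuclei the endothelial markers had summed to a median of 41.9 CPM in Liver and 126 CPM in Primary Hepatocytes, and the part of this shift in the *Igf1r* value was not tested.

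Levels of the same liver were compared between sample types over the 8 mice on the log2(CPM + 1) scale, with two-sided exact permutation p-values adjusted over the relations computed. Of 30 relations, 15 were computed, since in the other 15 the mice fell into separate clusters, among them *Igf1* between Liver and Cell Suspension. *Socs2* correlated between Liver and Cell Suspension (Pearson r = 0.98, exact permutation p = 0.00027, adjusted p = 0.0041, Spearman rho = 0.93, p = 0.0022, adjusted p = 0.033), and r was 0.91 without mice 3 and 5. *Stat5b* did likewise (r = 0.91, exact permutation p = 0.0023, adjusted p = 0.017, rho = 0.90, p = 0.0046, adjusted p = 0.034), with r = 0.79 without mice 3 and 6. For *Socs2*, mouse 6, also among the high mice, remained when mice 3 and 5 were left out. That value therefore cannot set the *Socs2* relation apart from the split between mice 3, 5 and 6 and the rest. The *Stat5b* relation did not pass without mouse 5 (r = 0.91, adjusted p = 0.067, exact permutation) or mouse 6 (r = 0.85, adjusted p = 0.22, exact permutation). Neither relation could be computed with unspliced UMIs only, that of *Stat5b* not without mouse 1, and that of *Socs2* not without mouse 6 or mouse 7, because the mice then fell into separate clusters. No computed relation between Primary Hepatocytes and the liver of origin passed the adjusted threshold, the closest being *Igfbp4* against Liver (r = -0.72, exact permutation p = 0.038, adjusted p = 0.19, rho = -0.81, p = 0.022, adjusted p = 0.11, r = -0.40 without mice 5 and 6). Because of separate clusters, *Ghr*, *Igf1*, *Igfals*, *Igfbp1*, *Igfbp2* and *Cish* were not computed between Primary Hepatocytes and Liver. Between Primary Hepatocytes and Cell Suspension *Ghr*, *Igf1* and *Igfbp2* were not. With 1 mouse left out, the Pearson correlation of *Igfbp4* passed against Liver without mouse 7 (r = -0.84, exact permutation p = 0.0060, adjusted p = 0.030) and against Cell Suspension without mouse 3 (r = -0.91, exact permutation p = 0.0036, adjusted p = 0.025), while Spearman's rho did not pass in either (adjusted p = 0.17 in both, exact permutation). Of 21 relations between pairs of genes within a sample type, 11 were computed. *Cish* and *Socs2* correlated in Cell Suspension (r = 0.92, exact permutation p = 0.0023, adjusted p = 0.013, rho = 0.93, p = 0.0022, adjusted p = 0.025, r = 0.93 without mice 5 and 6). Here mouse 3, high in both genes, remained, so the same limit holds. *Cish* and *Bcl6*, a repressor of STAT5 targets, correlated in Primary Hepatocytes (r = 0.93, exact permutation p = 0.0019, adjusted p = 0.013, rho = 0.86, p = 0.011, adjusted p = 0.059, r = 0.75 without mice 2 and 3), and had the opposite sign in Cell Suspension without passing (r = -0.82, exact permutation p = 0.019, adjusted p = 0.071, rho = -0.71, p = 0.058, adjusted p = 0.19, r = -0.73 without mice 5 and 6). No pool held 6 samples of a sample type, so no relation could be computed within a pool.

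Nucleus by nucleus, the high mice differed in the share of nuclei with a UMI of the transcripts. At a fixed depth this share rises with the mean level. It therefore cannot tell more nuclei with a transcript from more transcript per nucleus. After each hepatocyte nucleus was thinned to 2000 UMIs, leaving out shallower ones, *Igf1* was found in 89.7%, 97.4% and 93.9% of Liver nuclei of mice 3, 5 and 6 (Wilson 95% intervals 88.1 to 91.1, 96.6 to 98.1 and 92.8 to 94.9), and in 31.9% to 51.6% in the other mice. Unthinned, the shares ran from 50.9% to 98.1%. *Cish* was found in 3.82%, 14.2% and 14.8% of nuclei of mice 3, 5 and 6 and in at most 0.726% in the others. In mouse 4 thinning left 0 of 1176 nuclei with *Cish*, whereas 1.18% of its nuclei held the transcript unthinned. In endothelial nuclei of Liver, the medians were 17.1% for *Igf1*, 2.31% for *Cish* and 6.69% for *Socs2*, so *Cish* and *Socs2* in the other 5 mice were at or below the endothelial share. *Socs2* was found in 17.2%, 28.4% and 8.82% against at most 3.59%. *Ghr* was found in a median of 99.7% of nuclei in Liver, 99.8% in Cell Suspension and 43.2% (34.8% to 59.9%) in Primary Hepatocytes (unthinned 99.5%, 98.6% and 70.5%). In endothelial nuclei thinned to the same number *Ghr* was found in a median of 72.4%, 62.9% and 51.6%, the cultured samples ranging from 27.9% to 63.6% and overlapping those of hepatocytes. These endothelial shares rest on the deeper nuclei, 1877 of 2474 in Liver, 448 of 1152 in Cell Suspension and 478 of 1809 in Primary Hepatocytes. Median depths per sample of hepatocyte nuclei were 4391 to 13996 UMIs in Liver, 1818 to 5774 in Cell Suspension and 4339 to 8449 in Primary Hepatocytes, and thinning left out 2247, 3296 and 1073 hepatocyte nuclei. Intervals cover counting error only.

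The share of UMIs that were spliced also moved, and it was tested as the ratio of spliced over unspliced UMIs with sample as a term. Spliced and unspliced libraries were scaled separately, so each tested change is relative to the shift over all genes. The percents given beside it are unscaled and still hold that shift. For Primary Hepatocytes over Liver, 5 of the 10 genes passed, 4 higher and 1 lower, where 21.7% of 26590 genes did (14.7% higher, 7.0% lower). Over Cell Suspension 5 passed, 4 higher and 1 lower, where 14.4% did (8.33% higher, 6.08% lower). *Igfbp1* was 50.0% spliced in Liver (39.1 to 62.3), 65.5% in Cell Suspension (53.8 to 73.3) and 77.7% in Primary Hepatocytes (72.7 to 83.4), as medians of mice, and the change in ratio was 2.64-fold from Liver to culture (log2 1.40, SE 0.15, adjusted p = 2.2e-14). *Igfbp2* went from 7.07% (5.27 to 18.7) and 10.9% (9.51 to 14.4) to 40.5% (32.6 to 60.8), a 6.69-fold change in ratio from Liver (log2 2.74, SE 0.18, adjusted p = 2.3e-29). *Igfbp4* went from 30.4% (28.6 to 38.1) and 36.0% (33.3 to 38.4) to 56.7% (43.3 to 60.3), a 2.07-fold change in ratio from Liver (log2 1.05, SE 0.15, adjusted p = 1.4e-09). In these last 2 genes the total level fell while the spliced share rose. Splicing was not tested without cluster 8, whose cultured nuclei had a median of 28.3 CPM of *Igfbp2*. The other cultured hepatocyte clusters had medians of 7.64 to 11.4 CPM. *Ghr* was spliced in 1.62%, 2.07% and 2.77% of UMIs, and its change from Liver (log2 0.44, adjusted p = 0.028) was lost without mouse 2 (adjusted p = 0.059) or mouse 4 (adjusted p = 0.070), with filterByExpr (adjusted p = 0.076) and with ambiguous UMIs added to spliced ones (0.21, adjusted p = 0.27), while that from Cell Suspension was 0.59 (adjusted p = 0.0028). *Igfals* went the other way, at 26.2%, 25.7% and 12.9%, with a 3.18-fold lower ratio in culture than in Liver (log2 -1.67, SE 0.20, adjusted p = 1.9e-12). It was also the 1 gene of the 10 called between Cell Suspension and Liver (log2 -0.70, adjusted p = 0.0057), where 13.7% of genes were (9.25% higher, 4.49% lower), and this call was lost without mouse 4 (-0.42, adjusted p = 0.14). Over Cell Suspension, the log2 change in ratio was 1.04 for *Igfbp1* (adjusted p = 5.1e-09), 2.69 for *Igfbp2* (adjusted p = 2.1e-28), 1.29 for *Igfbp4* (adjusted p = 4.2e-13) and -0.97 for *Igfals* (adjusted p = 0.00021). *Igf1*, *Stat5b*, *Igf1r*, *Socs2* and *Cish* were called in neither culture comparison, with values from -0.19 to 0.15 over Liver (adjusted p 0.80 to 1) and from -0.30 to 0.82 over Cell Suspension (adjusted p 0.12 to 1), and the 9 genes not called between Cell Suspension and Liver ranged from -1.01 to 0.36 (adjusted p 0.064 to 1). Among these, *Stat5b* was called with ambiguous UMIs added to spliced ones, lower in culture than in Cell Suspension (-0.50, adjusted p = 0.0010) and higher in Cell Suspension than in Liver (0.39, adjusted p = 0.016). Without mouse 1 *Igf1r* was called in the same 2 comparisons (1.12, adjusted p = 0.032, and -1.32, adjusted p = 0.015), and without mouse 7 in the latter (-1.18, adjusted p = 0.020). *Igfbp1* was called between Cell Suspension and Liver with ambiguous UMIs added (0.47, adjusted p = 0.012) or without mouse 4 (0.49, adjusted p = 0.016). Over all genes the spliced share was a median of 19.97% for Liver, 26.8% for Cell Suspension and 29.2% for Primary Hepatocytes. Ambiguous UMIs were left out here, and they made up 59.0% of *Cish* and 40.7% of *Socs2* UMIs in Liver, so for *Cish* only 132 unspliced UMIs remained in Liver.

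**Figure D4:**
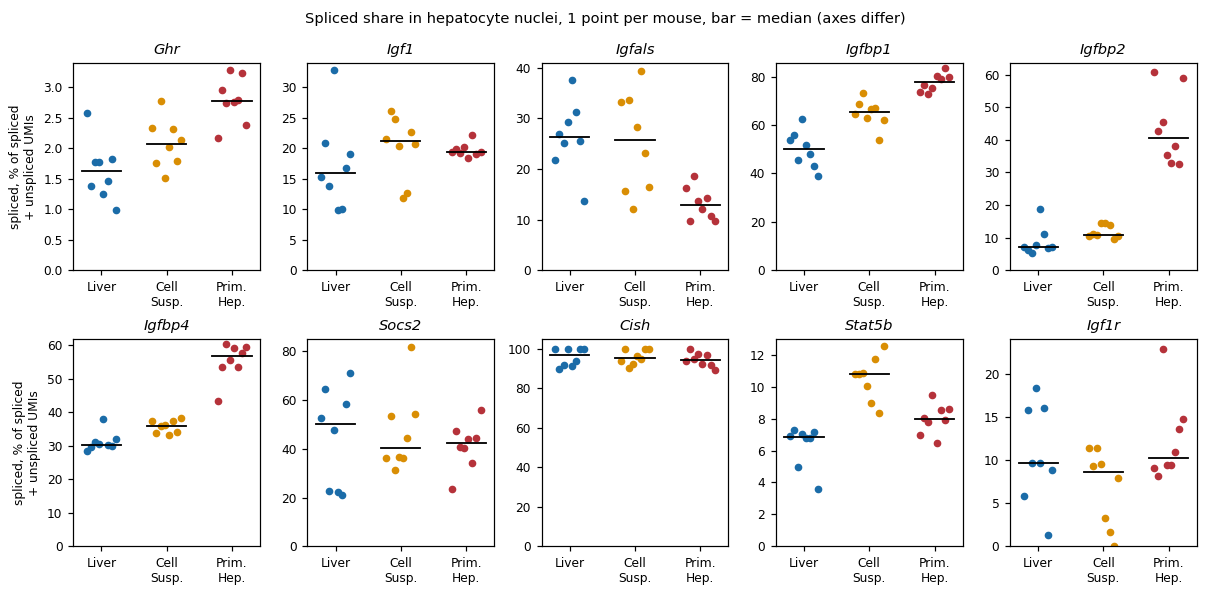
Spliced UMIs as a percent of spliced plus unspliced UMIs in hepatocyte nuclei, 1 point per mouse with the median as a bar, on axes that differ between genes. *Igfbp1*, *Igfbp2* and *Igfbp4* rise to medians of 77.7%, 40.5% and 56.7% in Primary Hepatocytes, and *Igfals* falls to 12.9%.

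Along the lobule, 4 of the genes had the same direction in every mouse of Liver. Nuclei that the annotation calls hepatocytes were ranked within each sample from portal to central by 10 periportal and 10 pericentral genes, none of them of the axis, and cut into equal periportal, middle and pericentral parts, with 14269 of 14998 nuclei of Liver and 12126 of 12589 of Cell Suspension ranked. *Igf1* was higher in periportal than pericentral nuclei of Liver in 8 of 8 mice, by a median of 2.21-fold, and *Cish* in 8 of 8, by 1.65-fold. *Socs2* had the opposite order, higher in pericentral nuclei in 8 of 8 mice by 2.54-fold, as did *Igfbp1* by 2.20-fold. Over all genes, 13.2% had the same direction in 8 of 8 mice of Liver and 8.36% in Cell Suspension. In Cell Suspension *Socs2* (2.57-fold) and *Igfbp1* (2.74-fold) kept the pericentral side in 8 of 8 mice, whereas *Igf1* was periportal in 7 of 8 and *Cish* in 6 of 8. *Ghr*, *Igfbp4*, *Stat5b*, *Igfbp2*, *Igfals* and *Igf1r* had mice in both directions between these outer parts in both sample types. The median of *Igfbp2* was highest in the middle part, at 503 CPM against 324 periportal and 247 pericentral in Liver. In Cell Suspension it was 552 CPM against 312 and 396 CPM. For *Cish* most mice other than 3, 5 and 6 had levels of a few CPM, and mouse 4 of Cell Suspension had 11.7 CPM in periportal nuclei. The parts are ranges of a score and not cell types, and the median depth was 7514 UMIs in periportal and 8556 in pericentral nuclei of Liver.

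**Figure D5:**
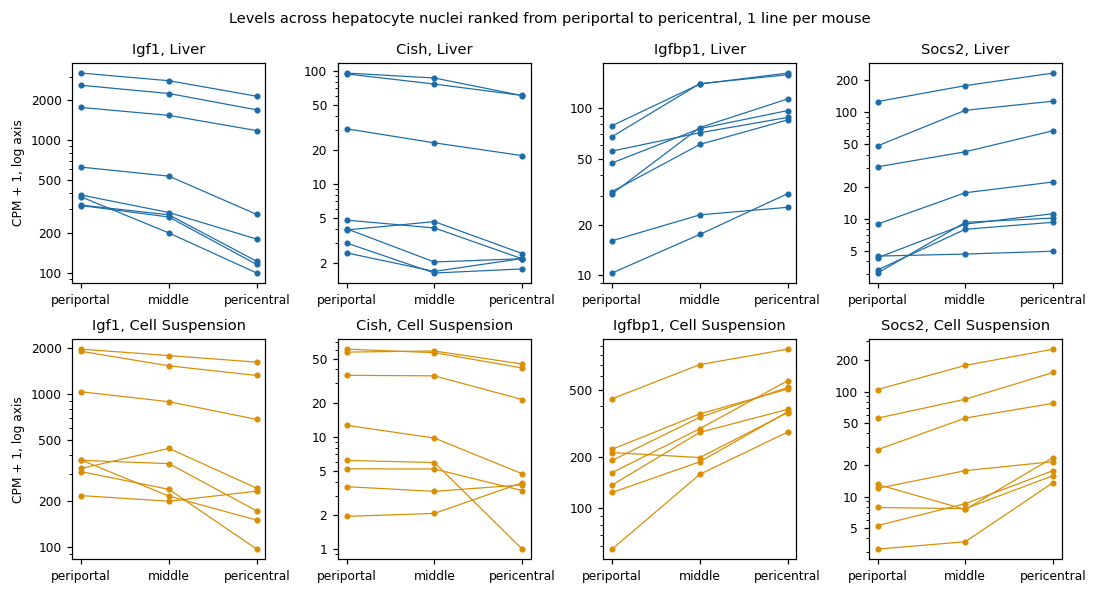
Levels (CPM + 1, log axis) of 4 genes in periportal, middle and pericentral nuclei of Liver and Cell Suspension, 1 line per mouse. In Liver all 8 lines of *Igf1* and *Cish* end lower on the pericentral side, and all 8 of *Igfbp1* and *Socs2* end higher.

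Endothelial nuclei offered a second cell type present in all sample types, in 2474, 1152 and 1809 nuclei. Cluster 3 held 1982 of those of Liver and 1068 of those of Cell Suspension but 75 cultured ones, whereas cluster 12 held 1733 of the cultured nuclei. For Primary Hepatocytes over Liver 5 of the 10 genes were called, 1 higher and 4 lower, where 33.8% of 18279 genes were (15.4% higher, 18.4% lower). Over Cell Suspension 5 were called, all lower, where 20.0% of genes were (9.33% higher, 10.7% lower), and for Cell Suspension over Liver 1 was, higher, where 3.9% were (2.03% higher, 1.87% lower). *Igfbp4* fell 5.44-fold in cultured endothelial nuclei, from 147 to 188 CPM in Liver to 8.95 to 52.0 CPM (log2 -2.44, SE 0.19, adjusted p = 4.3e-14). *Cish* fell 3.74-fold (log2 -1.90, SE 0.40, adjusted p = 0.00019), from 6.43 to 23.2 CPM in Liver to 0 to 4.56 CPM, and mice 3, 5 and 6 had 11.7, 18.6 and 23.2 CPM in Liver, in a range shared with the other mice. *Stat5b* fell 1.87-fold (log2 -0.91, SE 0.13, adjusted p = 5.2e-07) and *Ghr* 2.34-fold (log2 -1.23, SE 0.24, adjusted p = 6.0e-05). *Igfbp1* rose 3.79-fold from Liver to Cell Suspension (log2 1.92, SE 0.32, adjusted p = 8.7e-05), from 8.42 to 18.5 CPM to 6.17 to 127 CPM, and stood 3.27-fold above Liver in culture (log2 1.71, SE 0.31, adjusted p = 2.2e-05). Against Cell Suspension *Igfbp2* was 2.26-fold lower in culture (log2 -1.18, SE 0.36, adjusted p = 0.017), a call lost without mouse 4 (-0.91, adjusted p = 0.081). *Igfbp4* was 4.61-fold lower in the same comparison (log2 -2.20, adjusted p = 1.3e-11), *Cish* 4.11-fold (-2.04, adjusted p = 0.00073), *Ghr* 2.28-fold (-1.19, adjusted p = 0.00020) and *Stat5b* 1.58-fold (-0.66, adjusted p = 0.00049). Not called over Liver were *Igf1*, *Igfals*, *Socs2*, *Igfbp2* and *Igf1r*, with log2 values from -0.73 to 0.82 (adjusted p 0.068 to 0.37). Over Cell Suspension *Igf1*, *Igfals*, *Socs2*, *Igfbp1* and *Igf1r* were not called (-0.67 to 0.34, adjusted p 0.18 to 0.75), nor between Cell Suspension and Liver any gene of the 10 but *Igfbp1* (-0.80 to 0.48, adjusted p 0.12 to 0.97). *Socs2* was called lower than in Liver when 1 mouse was left out, in culture without mouse 8 (-0.73, adjusted p = 0.037) and in Cell Suspension without mouse 3 (-1.08, adjusted p = 0.027). Hepatocyte markers in endothelial nuclei stood at a median of 0.209 times the hepatocyte level in Liver, 0.264 times in Cell Suspension and 0.653 times in Primary Hepatocytes. In endothelial nuclei these markers summed to medians of 2635, 3470 and 2769 CPM, and in hepatocyte nuclei to 12914.5, 16074 and 3572 CPM. The higher ratio in culture, 0.454 to 1.56 by sample, thus goes with the lower hepatocyte level. The values of all 10 genes stand beside these ratios, and the part of hepatocyte RNA in them was not tested. *Igfbp4*, with the largest endothelial fall of the 10, had a mean of 414 CPM in hepatocyte nuclei of Liver and 15.6 CPM in those of Primary Hepatocytes. *Igf1r* was not called in any comparison, with 491 to 876 CPM in Liver, 417 to 899 CPM in Cell Suspension and 292 to 1122 CPM in Primary Hepatocytes. The cultured samples of pool 3, mice 1, 5 and 6, had 991 to 1122 CPM of *Igf1r* and those of the other pools 292 to 761 CPM.

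Other genes of the pathway were taken from 3 lists, whose counts stand beside the shares of all genes called, 53.7% over Liver and 50.4% over Cell Suspension for culture and 22.3% for Cell Suspension over Liver. Of 12 genes of receptor signalling, 8 were called in Primary Hepatocytes over Liver, 4 higher and 4 lower, with a median log2 fold change of -0.12. *Socs1*, an inhibitor of JAK kinases, rose most (log2 2.92), followed by *Ptpn11* (1.04) and *Stat5a* (0.42), while the phosphatase gene *Ptpn6* (-1.83), the insulin receptor substrate *Irs1* (-1.75) and the adaptor *Sh2b1* (-0.44) fell most. *Jak2*, the kinase of the receptor, differed by -0.12 and was not called. Against Cell Suspension 10 of 12 were called, 4 higher and 6 lower, with a median of -0.39 and the largest falls in *Socs3* (-4.93), *Irs2* (-2.11) and *Ptpn6* (-1.37), and the largest rises in *Socs1* (1.92) and *Ptpn11* (1.17). In Cell Suspension over Liver 4 were called, *Socs3* (4.37) and *Irs2* (2.12) higher and *Irs1* (-0.81) and *Ptpn1* (-0.34) lower. Of 12 IGF ligands, receptors, carriers and their proteases, 6 (50%) were called in Primary Hepatocytes over Liver, 4 higher, led by *Stc1* (1.74), the protease *Pappa* (1.55) and *Igfbp3* (1.43), and 2 lower, *Igfbp5* (-3.11) and the insulin receptor *Insr* (-0.69), with a median of 0.37. Against Cell Suspension 3 were higher, *Pappa* (1.17), *Igf2r* (0.58) and *Igfbp7* (0.49), and 3 lower, *Igfbp5* (-2.98), *Igfbp6* (-1.50) and *Insr* (-0.56), and between Cell Suspension and Liver edgeR called 0 of 12, with 3 at an unadjusted p under 0.05, and DESeq2 called 1. Of 20 hepatic growth hormone targets and sex-dependent factors, 13 were called in Primary Hepatocytes over Liver, 12 lower and 1 higher, with a median of -1.68. The largest falls were in the prolactin receptor *Prlr* (-5.42, SE 0.68), the male-type steroid enzyme *Hsd3b5* (-5.15, SE 0.46) and *Cyp7b1* (-4.92, SE 0.78). *Lepr* rose (1.28, SE 0.26). For the genes of the 3 lists, the number of mice with each direction was not counted. Against Cell Suspension 14 were lower, led by *Hsd3b5* (-5.34), *Prlr* (-5.17) and *Cyp7b1* (-4.94), and *Lepr* was higher (1.05), whereas in Cell Suspension over Liver edgeR called 1, *Cyp2d9* (0.64). Over the 3 lists 5 genes were called in Cell Suspension over Liver, and 8 with mouse as a term.

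The genes with the most similar pattern were sought over the 24 samples after the mean of each sample type was taken off, among the 8617 genes that averaged 10 CPM or more in hepatocyte nuclei, as a description. *Cish* was closest to *Qsox1* (r = 0.97), *Gm16551* (0.96) and *Onecut1* (0.95). Among the genes closest to *Socs2* were *Cyp2c68* (0.96) and *Lin7a* (0.95), and *Igf1* was closest to *Plcxd2* (0.95), *Qsox1* (0.95) and *Arid5b* (0.94). *Igfbp1* was closest to *Irf2bp2* (0.86), *Tmprss2* (0.83) and *Ip6k2* (0.80). Differences between mice were not taken off, so the split of mice 3, 5 and 6 from the rest stays in the values for *Cish*, *Socs2* and *Igf1*. In Liver *Onecut1*, for example, was at 277, 2006 and 1716 CPM in these mice and at 36.5 to 73.4 CPM in the rest. The 24 samples share mice, pools and depth, so the correlations carry no test.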

How the data were processed

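Nuclei of 24 hashtagged samples (8 mice by Liver, Cell Suspension and Primary Hepatocytes) had been pooled into 6 reactions of a 10x 3′ kit. Per the labels and methods, the authors demultiplexed reads with bcl2fastq 2.19.0, made UMI counts with Salmon Alevin 1.9.0 and Alevin-fry 0.7.0 on spliced and unspliced GRCm38 transcripts, and assigned nuclei, removed doublets and named cell types. The deposited counts hold spliced, unspliced and ambiguous UMIs separately, and no doublet caller was run here. The members and the pathway lists were chosen with earlier results of these data known.

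Counts of annotated nuclei were summed per sample and cell type. Clusters annotated only as cultured cells were assigned to endothelial or stellate cells where the markers of these led. The rest were assigned to hepatocytes, whose own markers had to be detected but did not have to lead. Different clusters held most hepatocytes of each sample type. Sums were fitted with edgeR 4.0.16 in R 4.3.3 (quasi-likelihood, TMM, at least 10 counts over all samples, sample type as the only term, Benjamini-Hochberg over all genes, threshold 0.05). The splicing test used a spliced and an unspliced library per sample, each with its own total and TMM factor, a sample term and the interaction of state and sample type. Fits were tested on simulated counts. Correlations used scipy 1.17.1 and two-sided exact permutation, and mice were called separate clusters where a gap exceeded 0.4 of the range, a limit set after seeing the data.

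A mouse number marks samples from 1 liver. Deviations from the mean of each sample type correlated between Liver and Cell Suspension of a mouse (0.34 to 0.85), and less between Liver and Primary Hepatocytes (-0.05 to 0.13) or Cell Suspension and Primary Hepatocytes (-0.17 to 0.13). All 10 members were named in every comparison, and in endothelial nuclei and for splicing those not called were given by name and range. Of each pathway list, the 3 called genes with the largest rise and fall were named, and of the genes with a similar pattern the 3 closest, except that some are not reported here. Alternatives were another normalization (RLE), DESeq2 1.42.0, other filters, mouse or pool as a term, spliced or unspliced UMIs alone, other nuclei, thinning, and leaving out each mouse. Leaving out cluster 0 or cluster 8 and library totals without TMM were chosen after seeing the data. Nuclei were thinned to 2000 UMIs for shares, and intervals are Wilson intervals at 95% confidence. Hashtag counts were used only through the deposited assignments.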

Additional observations from a re-analysis of the deposited data

Results flagged for a closer look

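In each group of 8 samples, the highest and lowest sample was compared with the rest by Dixon's ratio, and 11 of 90 groups had a sample set apart. For normally distributed values chance flags about 1 in 20 groups, and whether the values here are so distributed was not checked. In hepatocyte nuclei, *Ghr* of mouse 5 in Liver was 13698 CPM, with the next sample at 9161 CPM, and *Igfbp1* of mouse 3 in Cell Suspension was 958 CPM, with the next at 447 CPM. In endothelial nuclei, *Ghr* of mouse 8 in Liver stood at 2108 CPM, and *Stat5b* of mouse 6 in Liver was the lowest at 200.01 CPM. *Igfals* and *Igfbp2* of mouse 4 in Cell Suspension were highest in endothelial nuclei, at 32.0 and 141 CPM. Over all Cell Suspension samples these 2 genes had 16 and 123 endothelial UMIs. Among spliced shares in hepatocyte nuclei, mouse 5 was highest in Liver for *Igfbp2* (18.7%) and *Igfbp4* (38.1%), and mouse 1 was lowest in Primary Hepatocytes for *Igfbp4* (43.3%). Mouse 7 was highest in Cell Suspension for *Socs2* (81.8%), which rests on 9 spliced and 2 unspliced UMIs. Mouse 3 was highest in Primary Hepatocytes for *Igf1r* (22.9%), from 19 spliced and 64 unspliced UMIs.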

How the results depend on the processing

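Of the alternatives tried, 1209 values kept their direction and side of the threshold or stayed within 1.5 times, while 21 moved further, 21 were newly called, 21 lost their call and 14 turned direction. The counts of members called in both culture comparisons stayed within that limit under every alternative run. Without each mouse in turn, 7 to 9 members were called in hepatocytes for Primary Hepatocytes over Liver, 8 to 9 over Cell Suspension and 1 to 2 for Cell Suspension over Liver. For this last comparison, 2 members were called with RLE, DESeq2, filterByExpr, pool as a term, unspliced UMIs only or spliced UMIs only, and 3 with library totals alone, against 1. Pathway genes called there were 8 with RLE, DESeq2 or the replicate block and 10 with library totals, against 5, and 5 to 7 without a mouse. In endothelial nuclei 1 to 2 members were called for Cell Suspension over Liver without a mouse. For splicing, 3 were called for Cell Suspension over Liver with ambiguous UMIs added to spliced ones and 1 to 2 without a mouse. Of the relations across mice, 2 passed, but 0 with unspliced UMIs only and 0 to 3 without a mouse. With mouse as a replicate block, 8 members were called against Liver and 8 against Cell Suspension, *Cish* being lost, and the block changed no other call of a member in hepatocytes.

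Directions turned in few cases. For Primary Hepatocytes over Liver, *Igfbp1* was -0.63 with unspliced UMIs only and *Igf1r* -1.18 over all nuclei. Over Cell Suspension, *Igf1r* was -0.063 with unspliced UMIs only, -0.65 over all nuclei and -0.029 without cluster 8. For Cell Suspension over Liver, where these members were not called, *Igfals* was -0.42 with spliced UMIs only, -0.015 with library totals and ranged from -0.0082 to 0.24 without a mouse, *Socs2* was -0.034 with unspliced UMIs only, *Cish* was 0.34 with the replicate block, 0.045 with pool as a term and ranged from -0.34 to 0.054 without a mouse, and *Igf1r* was -0.37 with spliced UMIs only and -0.52 over all nuclei. The causes were not tested. Spliced or unspliced UMIs alone leave fewer counts, although *Igfbp1* still had 4635 unspliced UMIs in Liver and 3550 in Primary Hepatocytes. *Cish* and *Igf1r* rest on few UMIs, which limits both.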
